A study of Homo sapiens with 6 samples.

Results

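The LIM-only genes LMO1, LMO2, LMO3 and LMO4 and the gene of their binding cofactor, LDB1, were followed in H69 cells treated with trichostatin A (TSA) or with its solvent. They were picked out by symbol in a table of 31814 genes. The symbols named 6 genes, of which 5 had values, and LDB2 was not analysed here. The genes were chosen by their symbols and by the TPM difference between the TSA and vehicle libraries, which was known from earlier results of the same 6 libraries, so their TSA and vehicle values are given as a description. Whether a member passed a threshold is stated as a count and supports nothing.

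The TSA group held 3 libraries of H69 cells, a human cell line, exposed to 1 µM TSA for 24 h, and the vehicle group held 3 libraries exposed to DMSO for the same 24 h. All cells shared the line and a serum-supplemented RPMI medium. TSA blocks histone deacetylases, which strip acetyl groups off histones and further proteins. In the treatment tag of these samples the agent is spelled HSA, but TSA in the design text and in the treatment protocol. Neither the tissue of the line nor whether the replicates were separate cultures is given, so the p-values take in only how these libraries vary, and that variation may be technical.

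LIM-only proteins consist of little more than a tandem pair of LIM domains, zinc-binding folds that bind other proteins and not DNA. LDB1 binds LIM domains and also binds itself, and so bridges LIM-only or LIM-homeodomain proteins to partners such as basic helix-loop-helix and GATA factors. In blood precursors LMO2 and LDB1 join TAL1, an E protein and a GATA factor on DNA, and misplaced expression of LMO1 or LMO2 drives T-cell leukaemia. LMO1 and LMO3 are expressed in the nervous system and have been linked to neuroblastoma, and LMO4 is widely expressed and binds BRCA1, RBBP8 (CtIP) and DEAF1.

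LMO1 and LMO3 are the closest pair of the family, and part of their coding sequence is shown because their transcripts differed widely in level. In GENCODE 29 transcripts, the best-matching coding isoforms of LMO1 and LMO3 were identical at 371 of 466 aligned bases (79.6%). The other pairs among LMO1 to LMO4 were identical at 56.4% to 64.8% of aligned bases. The 90 bases (30 codons) below are the middle of the longest ungapped block, coding bases 202 to 291 of LMO1 (chromosome 11) and 226 to 315 of LMO3 (chromosome 12), and capitals mark the bases that differ.
LMO1: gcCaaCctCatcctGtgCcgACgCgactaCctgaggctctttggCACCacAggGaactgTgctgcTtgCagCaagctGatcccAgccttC
LMO3: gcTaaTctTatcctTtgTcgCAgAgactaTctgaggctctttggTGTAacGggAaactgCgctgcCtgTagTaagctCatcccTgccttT
Of the 22 differing bases, 19 were the third base of a codon. No stretch of 50 bases in any annotated transcript of the 5 genes occurred in a transcript of another gene, on either strand (0 of 1727 such stretches for LMO1 and 0 of 10965 for LMO3). Reads of that length without mismatches could therefore be assigned to a single gene of the family.

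The RefSeq promoter windows (GRCh38.p14, 250 bases before to 50 bases after an annotated start) are shown because the levels of these genes moved in the same direction. Windows were given for LMO1, LMO3, LMO4 and LDB1. The first listed of each was chr12:16608165-16608464 for LMO3, chr11:8268738-8269037 for LMO1 and chr10:102114953-102115252 for LDB1, all on the minus strand, and chr1:87328630-87328929 for LMO4 on the plus strand. Capitals mark TAAT on either strand, the core that many homeodomain proteins bind, a motif picked after the sequences had been seen.
LMO3: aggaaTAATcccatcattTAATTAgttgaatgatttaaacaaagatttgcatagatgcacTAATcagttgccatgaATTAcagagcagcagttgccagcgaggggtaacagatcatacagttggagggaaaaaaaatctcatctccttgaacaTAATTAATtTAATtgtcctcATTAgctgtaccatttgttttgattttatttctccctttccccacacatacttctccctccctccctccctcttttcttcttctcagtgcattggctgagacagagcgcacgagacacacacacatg
LMO1: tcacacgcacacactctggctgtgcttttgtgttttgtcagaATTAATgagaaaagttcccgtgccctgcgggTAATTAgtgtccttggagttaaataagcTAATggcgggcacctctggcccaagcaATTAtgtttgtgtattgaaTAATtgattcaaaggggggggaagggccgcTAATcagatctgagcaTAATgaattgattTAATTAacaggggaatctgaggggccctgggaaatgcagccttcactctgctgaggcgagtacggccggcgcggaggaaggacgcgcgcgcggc
LDB1: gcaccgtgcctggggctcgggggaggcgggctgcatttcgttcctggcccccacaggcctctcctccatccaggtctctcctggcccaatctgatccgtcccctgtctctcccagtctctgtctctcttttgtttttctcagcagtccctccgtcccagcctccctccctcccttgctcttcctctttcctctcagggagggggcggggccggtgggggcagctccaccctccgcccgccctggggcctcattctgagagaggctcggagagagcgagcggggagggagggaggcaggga
LMO4: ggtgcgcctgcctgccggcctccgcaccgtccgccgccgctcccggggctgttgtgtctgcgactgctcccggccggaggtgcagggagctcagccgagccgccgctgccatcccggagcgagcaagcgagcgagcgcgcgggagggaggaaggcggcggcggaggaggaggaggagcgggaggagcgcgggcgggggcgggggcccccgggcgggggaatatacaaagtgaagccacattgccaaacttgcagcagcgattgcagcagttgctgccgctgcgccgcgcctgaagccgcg
The LMO3 window held 10 copies of TAAT and the LMO1 window 11, counting both strands and overlapping copies. At least 10 copies were present in 0.547% of all 35116 windows and at least 11 in 0.285%, while 50.2% held at least 1. The LDB1 and LMO4 windows held 0. The 4 other LMO3 windows, at 4 further annotated starts, held 1 to 3 copies. TAAT contains no G or C, and the windows differed in G and C content. It was 40.0% for LMO3, 50.7% for LMO1, 67.0% for LDB1 and 74.0% for LMO4, against a median of 58.7% over all windows. The shares of windows were not matched for this content.

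The E-box CANNTG, the element of basic helix-loop-helix factors, occurred 5 times in the LMO3 window shown, as in 1.79% of all windows at that count or more. It occurred 1 time in the LMO4 window and 0 times in the LMO1 and LDB1 windows. GATA was absent from all 4 windows shown on both strands, and 49.7% of all windows held at least 1 copy. The 4 other LMO3 windows held CANNTG 0 to 4 times and GATA 0 to 2 times. The LMO4 window was the richest in CG, with 38 copies, a count reached by 9.91% of all windows, against 3 in the LMO3 window, a count reached by 81.8%. The table of expression values is per gene, so it does not show which start was in use.

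Expression was deposited as TPM, in which reads are divided by the length of a gene and by the total of the library. The ratios of TPM values within a gene gave back whole reads for each library. The gene lengths implied for the 5 genes equalled their summed exon lengths in GENCODE 29 (1690 bases for LMO1, 3109 for LMO2, 10268 for LMO3, 5833 for LMO4 and 2790 for LDB1), which fixes the reads of these genes. Recovered totals, which are lower bounds for a library, were 23009041 to 24803310 reads in TSA libraries and 22533307 to 26148651 in vehicle libraries. TSA replicate 1 stood apart from TSA replicates 2 and 3, with chi-square values per degree of freedom (reads compared over all genes) of 105 and 76.4, against 7.97 between those replicates, and vehicle replicate 2 stood apart from vehicle replicates 1 and 3 (68.4 and 45.8, against 16.5). Mitochondrial transcripts made up 16.9%, 7.65% and 10.4% of TPM in TSA replicates 1, 2 and 3 and 12.3%, 4.97% and 10.1% in vehicle replicates 1, 2 and 3.

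All 7 neuroendocrine markers examined reached 1 TPM in some library, with summed levels of 647 to 764 TPM in TSA and 1302 to 1553 TPM in vehicle libraries. The 7 bile duct markers summed to 284 to 406 TPM in TSA and 751 to 954 TPM in vehicle, and 5 of the 7 reached 1 TPM in some library. Of these 3 were lower and 2 higher. EPCAM, at 215 ± 34.0 TPM in TSA and 600.1 ± 61.9 TPM in vehicle, and KRT19 made up most of the sum, while SSTR2, at 21.2 ± 1.78 TPM in TSA and 2.61 ± 0.883 TPM in vehicle, and SOX9 were higher (n = 3 each). Blood markers, which bear on LMO2, summed to 1.25 to 1.49 TPM over 5 genes in TSA and 0.633 to 0.933 TPM in vehicle, and 5 endothelial markers to 0.509 to 0.655 TPM in TSA and 0.557 to 0.865 TPM in vehicle. The 5 fibroblast markers summed to 18.8 to 21.1 TPM in TSA and 5.42 to 8.01 TPM in vehicle. COL1A1 and THY1 were the fibroblast markers at 1 TPM or more in some library, and their part in the results was not tested.

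LMO3 (ENSG00000048540.10) showed the widest difference between the groups among the 5 genes. It was at 1.88, 2.18 and 1.84 TPM in TSA replicates 1, 2 and 3, and at 82.8, 79.4 and 105 TPM in vehicle replicates 1, 2 and 3. Every TSA library was far below every vehicle library. In reads these levels were 140, 167 and 134 in TSA libraries and 5677, 5121 and 7621 in vehicle libraries. Its mean level in TSA, 1.97 ± 0.186 TPM, was 2.21% of that in vehicle, 89.0 ± 13.8 TPM (SD, n = 3 each). The log2 fold change, TSA minus vehicle on log2(TPM + 1), was −4.91 with a standard error of 0.14, the ninth greatest fall of 17596 genes tested. In RNA from a whole culture, fewer cells with a transcript and less of it per cell cannot be told apart.

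**Figure D1:**
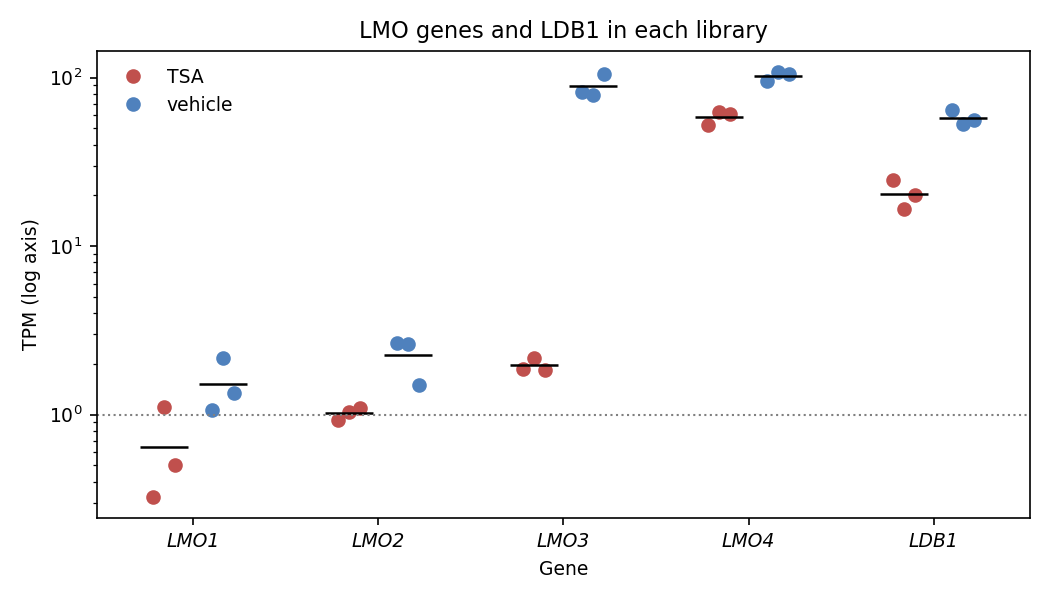
TPM on a log axis for each gene, with 3 TSA libraries (red, left) and 3 vehicle libraries (blue, right). Bars are group means and the dotted line marks 1 TPM, the minimum for testing. LMO3 lay at 1.84 to 2.18 TPM in TSA and 79.4 to 105 TPM in vehicle, while the groups overlapped for LMO1.

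LMO4 (ENSG00000143013.8), the broadly expressed member, kept a high level in both groups. It was at 52.7, 62.8 and 60.8 TPM in TSA libraries and at 95.8, 108 and 105 TPM in vehicle libraries, again without overlap. The means were 58.8 ± 5.35 TPM in TSA and 103 ± 6.45 TPM in vehicle (SD, n = 3 each), and the log2 fold change was −0.80 with a standard error of 0.10. It was −0.48 after trends with transcript length and GC content had been taken out of each library.

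LMO1 and LMO2, the members known from T-cell leukaemia, were near the lower limit of measurement in both groups. LMO1 (ENSG00000166407.9) was at 0.326, 1.11 and 0.501 TPM in TSA libraries, from 4, 14 and 6 reads, and at 1.06, 2.17 and 1.34 TPM in vehicle libraries, from 12, 23 and 16 reads. TSA replicate 2 lay above vehicle replicate 1, so the groups overlapped. The exact 95% Poisson interval, which covers counting error only, ran from 1.09 to 10.2 reads for the 4 reads of TSA replicate 1 and from 14.6 to 34.5 for the 23 reads of vehicle replicate 2. The log2 fold change of LMO1 was −0.62 with a standard error of 0.25, and −1.20 with a pseudocount of 0.1.

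LMO2 (ENSG00000135363.7) was at 0.930, 1.04 and 1.09 TPM in TSA libraries, from 21, 24 and 24 reads. In vehicle libraries it was at 2.65, 2.61 and 1.50 TPM, from 55, 51 and 33 reads, and no TSA library reached the lowest vehicle library. The means were 1.02 ± 0.0814 TPM in TSA and 2.25 ± 0.653 TPM in vehicle (SD, n = 3 each), with a log2 fold change of −0.67 and a standard error of 0.19.

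LDB1 (ENSG00000198728.6), the bridging cofactor, was at 24.6, 16.6 and 20.2 TPM in TSA libraries and at 64.7, 53.4 and 55.9 TPM in vehicle libraries. The groups were well apart, with means of 20.5 ± 4.00 TPM in TSA and 58.0 ± 5.94 TPM in vehicle (SD, n = 3 each). In reads LDB1 had 499, 346 and 400 in TSA libraries and 1206, 936 and 1104 in vehicle libraries. Its log2 fold change was −1.47 with a standard error of 0.16.

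All 5 genes passed the filter on low values, and 4 of them (LMO2, LMO3, LMO4 and LDB1) were lower in TSA at a limma adjusted p under 0.05, with 0 higher. Of all 17596 tested genes 62.2% were called, 34.2% lower and 28.0% higher. The values of these genes took part in choosing them, so nothing is read from that count. LMO2 was no longer counted without TSA replicate 2 (−0.67), TSA replicate 3 (−0.69), vehicle replicate 1 (−0.57) or vehicle replicate 2 (−0.58). The same 4 genes had TSA values that did not overlap the vehicle values, a pattern found in 36.2% of tested genes in this direction and in 67.0% in either direction. The 4 genes were also lower at a false discovery rate under 0.05 in the authors' deposited table, where 19.5% of all 31814 genes were. That share includes genes below the filter on low values, so it is not on the same base as the shares of tested genes. That table gives log2 fold changes of −1.13 for LMO1, −1.07 for LMO2, −5.42 for LMO3, −0.73 for LMO4 and −1.44 for LDB1.

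**Figure D2:**
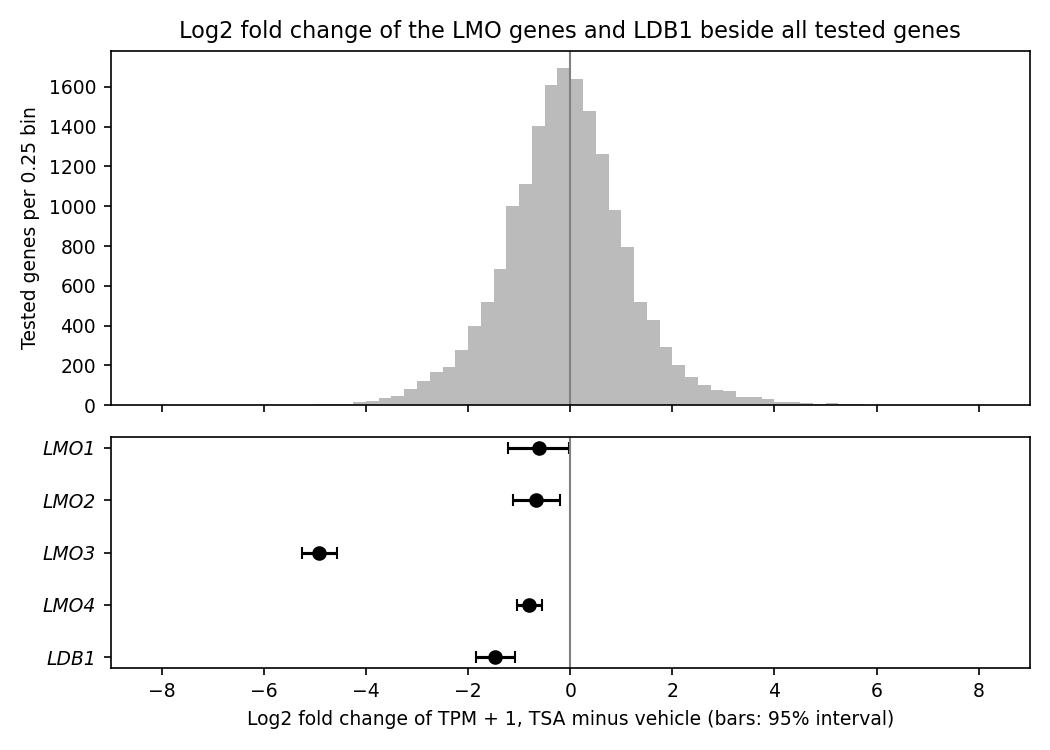
Upper panel, number of tested genes in bins of log2 fold change 0.25 wide, TSA minus vehicle on log2(TPM + 1). Lower panel, the 5 genes with their 95% limma intervals on the same axis. LMO3 (−4.91) lay in the far left tail, LDB1 was at −1.47 and the others were between −0.80 and −0.62.

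Over all tested genes the log2 fold change had a median of −0.095, and of 0.0085 with median-of-ratios scaling, so small differences of either sign depend on the scaling. Under that scaling the 5 genes kept their direction, with −0.56 for LMO1, −0.59 for LMO2, −4.81 for LMO3, −0.68 for LMO4 and −1.35 for LDB1. Without TSA replicate 1, the library that stood apart, the values were −0.48, −0.64, −4.89, −0.73 and −1.60 in the same gene order. Without vehicle replicate 2 they were −0.44, −0.58, −4.99, −0.76 and −1.52.

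The make-up of the LMO transcript pool, in TPM and so per length, differed between the groups. LMO1 to LMO4 summed to 55.9, 67.2 and 64.3 TPM in TSA libraries and to 182, 192 and 213 TPM in vehicle libraries. LMO4 made up 94.4%, 93.6% and 94.7% of the pool in TSA libraries, against 52.5%, 56.2% and 49.4% in vehicle libraries. The share of LMO3 was 3.36%, 3.25% and 2.87% in TSA and 45.4%, 41.3% and 49.3% in vehicle. LMO1 and LMO2 together were a minor part in every library, with LMO1 at 0.583% to 1.65% in TSA and 0.583% to 1.13% in vehicle. In vehicle libraries LMO4 lay above LMO3 in each library, but in vehicle replicate 3 the levels were 105.0 and 104.8 TPM. The order of LMO3 and LMO4 rests on the length used for scaling, since LMO3 had more reads than LMO4 in each vehicle library and its summed exons over 35 annotated transcripts are the longest of the 5 genes.

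**Figure D3:**
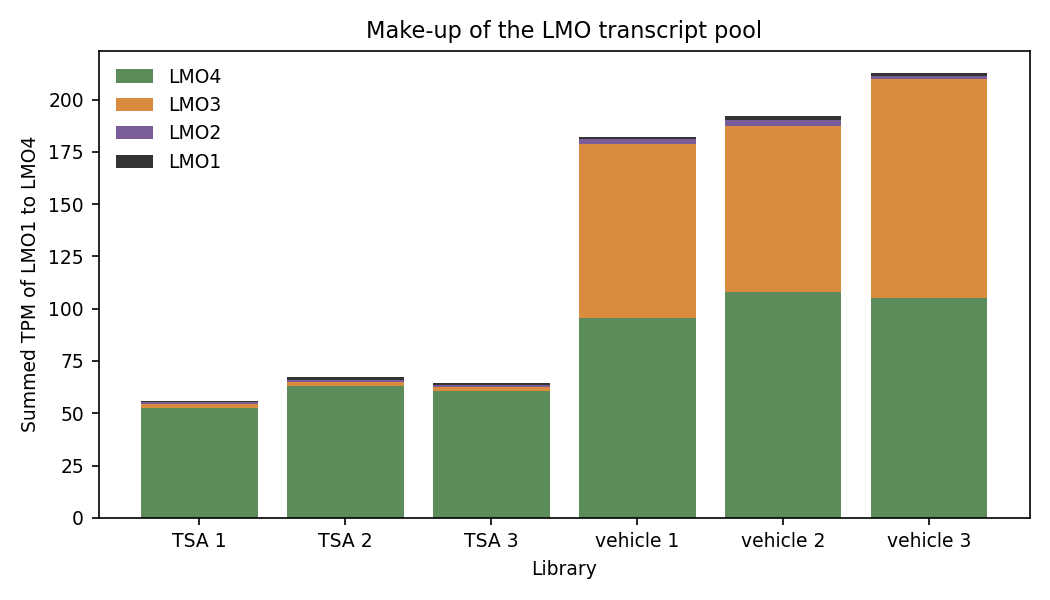
Stacked TPM of LMO4, LMO3, LMO2 and LMO1 (bottom to top) in the 3 TSA libraries (left) and the 3 vehicle libraries (right). The pool reached 55.9 to 67.2 TPM in TSA, nearly all LMO4, and 182 to 213 TPM in vehicle, shared between LMO4 and LMO3.

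Set against the cofactor, the ratio of LMO pool TPM to LDB1 TPM was 2.27, 4.04 and 3.17 in TSA libraries and 2.82, 3.60 and 3.81 in vehicle libraries. These ratios, taken within a library and so free of scaling between libraries, overlapped. The ratio of LMO4 to LDB1 TPM lay between 2.14 and 3.78 in TSA and between 1.48 and 2.03 in vehicle, without overlap. The ratio of LMO3 to LDB1 TPM was 0.0762, 0.131 and 0.0910 in TSA and 1.28, 1.49 and 1.88 in vehicle, which is likewise without overlap.

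Among partners that join LMO proteins and LDB1 on DNA, 15 of 20 genes were tested, of which 8 fell and 3 rose, beside 34.2% lower and 28.0% higher over all tested genes. The median log2 fold change was −0.70, against −0.095 over all tested genes. Of the 14 tested partners at a mean of 1 TPM or more in vehicle, 8 fell and 2 rose. This cut can remove only genes that are low in vehicle. It therefore favours falls, and nothing is read from it. Over all 15 tested partners, leaving out TSA replicate 1 gave 8 lower and 3 higher. Leaving out vehicle replicate 2 gave 7 lower and 3 higher. E protein genes, whose products pair with tissue-specific basic helix-loop-helix factors, were among those that fell. TCF4 was at 8.01 ± 2.14 TPM in TSA and 79.2 ± 15.3 TPM in vehicle (SD, n = 3 each), with a log2 fold change of −3.16 (limma adjusted p 4.03e-05). TCF12 was at 16.5 ± 2.02 TPM in TSA and 85.0 ± 6.82 TPM in vehicle, with −2.30 (limma adjusted p 1.53e-05).

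The partners that rose most were BEX2, a brain-expressed gene whose product has been reported to bind LMO2, and NHLH1, a neuronal basic helix-loop-helix factor. BEX2 was at 73.0 ± 6.49 TPM in TSA and 1.25 ± 0.565 TPM in vehicle (SD, n = 3 each), with a log2 fold change of 5.06 (limma adjusted p 7.75e-06). NHLH1 was at 7.91 ± 0.702 TPM in TSA and 0.917 ± 0.494 TPM in vehicle, with 2.24 (limma adjusted p 0.000146). NHLH2, its paralog and a known partner of LMO3 in neuroblastoma cells, went the other way, at 1.35 ± 0.346 TPM in TSA and 4.40 ± 0.798 TPM in vehicle (limma adjusted p 0.00143). TAL1 and LYL1, the blood partners of LMO2, stayed under 1 TPM in every library and were not tested.

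Of the GATA genes, GATA2 did not pass the test at 6.39 ± 0.613 TPM in TSA and 5.17 ± 0.436 TPM in vehicle, and GATA6 fell, at 2.29 ± 0.382 TPM in TSA and 4.55 ± 0.545 TPM in vehicle (limma adjusted p 0.00639, n = 3 each). GATA1, the red cell partner of LMO2, was at 1.38, 0.985 and 0.943 TPM in TSA libraries and listed at 0 in each of the 3 vehicle libraries, so that 1 library reached 1 TPM and it was not tested. GATA4 was not tested either, at 1.05 ± 0.311 TPM in TSA and 0.0338 ± 0.00202 TPM in vehicle, nor was GATA3, at 0.240 ± 0.138 TPM in TSA and 0.0153 ± 0.0266 TPM in vehicle, and the TSA values of both lay above all their vehicle values.

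Genes that set the turnover of LDB1 protein were followed too. SSBP2, which binds LDB1 and protects it from degradation, rose to 58.7 ± 3.61 TPM in TSA, against 25.2 ± 1.85 TPM in vehicle (SD, n = 3 each, log2 fold change 1.19, limma adjusted p 8.04e-05). Its paralogs SSBP3 and SSBP4 did not pass the test, with log2 fold changes of −0.17 and −0.064. RLIM, the ubiquitin ligase of LDB1, was at 42.8, 24.0 and 23.3 TPM in TSA libraries and at 66.0, 41.4 and 63.1 TPM in vehicle libraries, so that TSA replicate 1 lay above vehicle replicate 2. Its log2 fold change was −0.93 (limma adjusted p 0.0256, with 0.00301 to 0.0866 over 19 alternatives). That call ended without TSA replicate 2 (−0.80), TSA replicate 3 (−0.78), vehicle replicate 1 (−0.81) or vehicle replicate 3 (−0.84). It also ended with no filter on low values (limma adjusted p 0.05002) and without mitochondrial genes (limma adjusted p 0.0516). With length and GC trends removed the call was kept, at a value of −0.34. Of the 5 genes of this list 1 rose and 1 fell, with a median of −0.11. For comparison, calls among all tested genes came to 28.0% upward and 34.2% downward, around a median of −0.095. No direction of the list is read from 1 gene each way. SSBP2, SSBP3 and SSBP4 also stand among the LDB1 complex partners above and were counted there as well.

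LIM-homeodomain factors carry LIM domains beside a DNA-binding homeodomain and compete with LIM-only proteins for LDB1. Of 12 genes 8 were tested, of which 5 fell and 2 rose, with a median log2 fold change of −0.81. Over all tested genes 34.2% were lower and 28.0% higher, and the median was −0.095. Of the 7 at a mean of 1 TPM or more in vehicle, a cut that favours falls, 5 fell and 1 rose. LHX9 was at 1.58 ± 0.203 TPM in TSA and 15.7 ± 3.36 TPM in vehicle (log2 fold change −2.68, limma adjusted p 4.42e-05, n = 3 each). LHX8 was at 2.02 ± 0.671 TPM in TSA and 12.2 ± 0.874 TPM in vehicle (−2.15, limma adjusted p 0.000131), and ISL2 at 0.123 ± 0.0612 TPM in TSA and 2.02 ± 0.529 TPM in vehicle (−1.42, limma adjusted p 0.000461). ISL1, the most abundant of the list, fell to 71.8 ± 2.60 TPM in TSA, against 149 ± 11.6 TPM in vehicle (−1.04, limma adjusted p 0.00011). LMX1B rose to 17.0 ± 1.59 TPM in TSA, against 1.43 ± 0.446 TPM in vehicle (2.90, limma adjusted p 3.20e-05).

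Of 13 genes known as partners of LMO4, ESR1 was not analysed here and 12 were tested, of which 8 fell and 3 rose. Their median log2 fold change was −0.92, against −0.095 over all tested genes, of which 34.2% were lower and 28.0% higher. Of the 10 at a mean of 1 TPM or more in vehicle, a cut that favours falls, 8 fell and 1 rose. NEUROG2, a proneural factor that works with LMO4 in the mouse cortex, fell to 1.00 ± 0.296 TPM in TSA, against 10.3 ± 2.51 TPM in vehicle (−2.49, limma adjusted p 0.0001, n = 3 each). MTA1, a subunit of a deacetylase complex, fell to 9.41 ± 0.894 TPM in TSA, against 39.2 ± 4.25 TPM in vehicle (−1.95, limma adjusted p 3.39e-05). IL6ST, the signalling receptor subunit shared by the interleukin-6 family, rose to 31.6 ± 3.39 TPM in TSA, against 0.540 ± 0.0748 TPM in vehicle (4.40, limma adjusted p 5.91e-06). SNAI1, a repressor of epithelial genes, rose to 13.4 ± 2.85 TPM in TSA, against 2.62 ± 0.381 TPM in vehicle (1.98, limma adjusted p 0.000153). Its paralog SNAI2 fell to 18.6 ± 1.06 TPM in TSA, against 40.0 ± 4.59 TPM in vehicle (−1.06, limma adjusted p 0.000259). DEAF1, BRCA1, BARD1 and RBBP8 also fell, with log2 fold changes of −1.55, −1.02, −0.58 and −1.61.

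**Figure D4:**
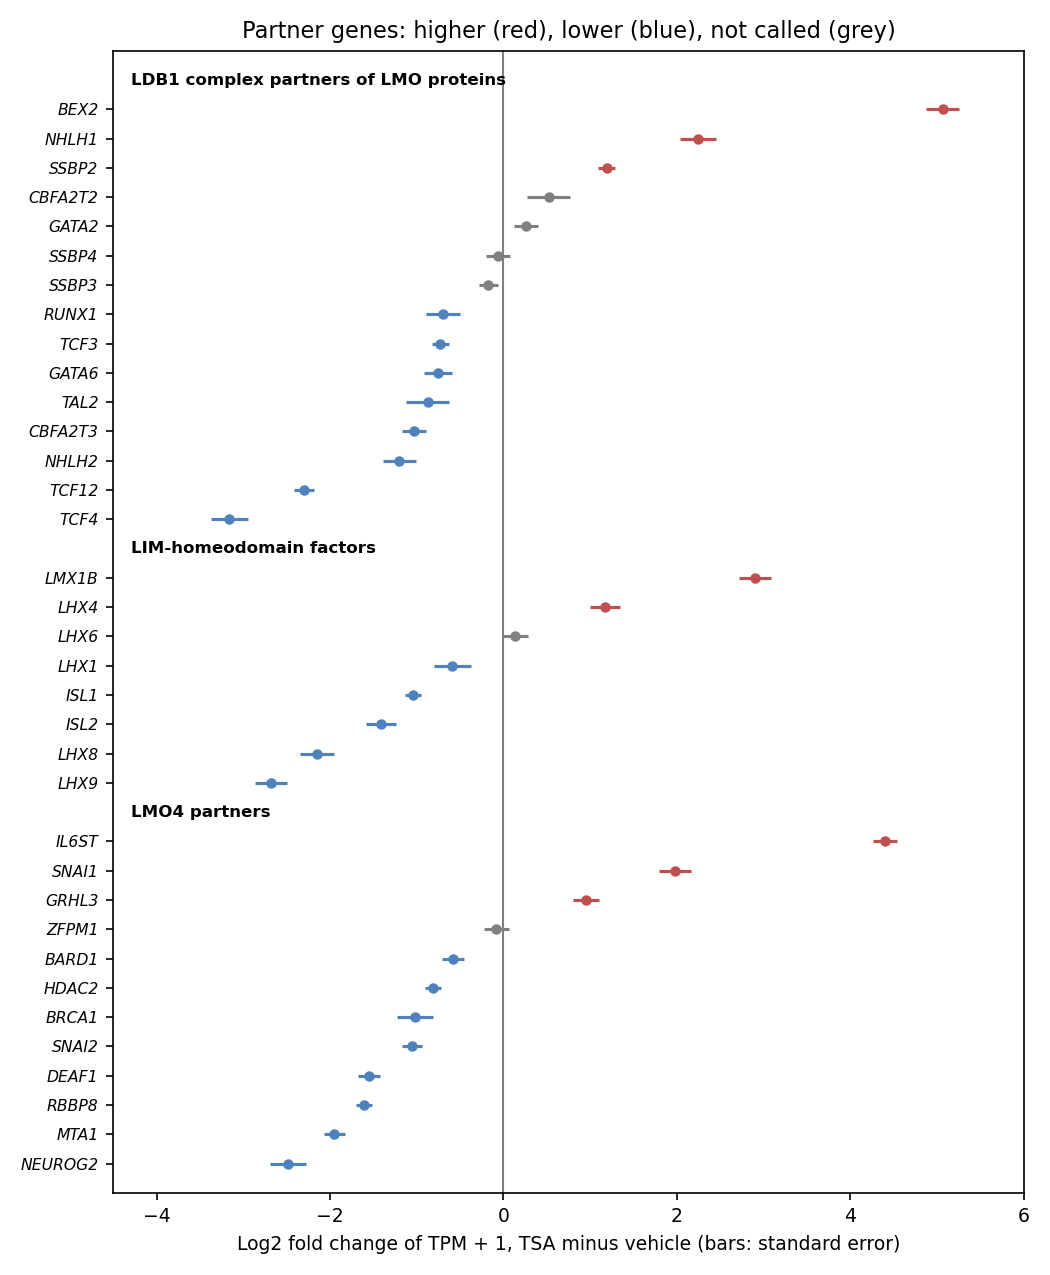
Log2 fold change, TSA minus vehicle on log2(TPM + 1), with standard errors, for the tested genes of 3 partner lists. Red genes rose, blue genes fell and grey genes did not pass the test. TCF4 (−3.16) and LHX9 (−2.68) were the lowest of their lists and BEX2 (5.06) and IL6ST (4.40) the highest of theirs.

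Genes that surround LMO1 and LMO3 in the transcription factor circuit of neuroblastoma were included for comparison, with 5 of 12 tested, 3 lower and 1 higher. Of the list 3 genes were not analysed here. MYCN fell to 67.9 ± 6.95 TPM in TSA, against 241 ± 73.1 TPM in vehicle (−1.77, limma adjusted p 0.00066, n = 3 each), and the receptor kinase gene ALK rose to 5.84 ± 1.81 TPM in TSA, against 1.98 ± 0.480 TPM in vehicle (1.18, limma adjusted p 0.00422). ISL1 is counted in this list too, and the median of the list was −1.04. Over all tested genes 34.2% were lower and 28.0% higher, with a median of −0.095.

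Many, but not all, proteins of a wider set of LIM domain genes act at the cytoskeleton or at adhesions. Of 38 genes 26 were tested, of which 12 rose and 9 fell, beside 28.0% higher and 34.2% lower over all tested genes. The median log2 fold change was 0.098, against −0.095 over all tested genes. Of the 22 at a mean of 1 TPM or more in vehicle, a cut that favours falls, 8 rose and 9 fell. ABLIM3 rose to 5.36 ± 0.289 TPM in TSA, against 0.0273 ± 0.0103 TPM in vehicle (2.63, limma adjusted p 1.47e-05, n = 3 each), and PDLIM7 to 36.3 ± 4.05 TPM, against 6.15 ± 0.789 TPM in vehicle (2.39, limma adjusted p 2.25e-05). LMO7, a large LIM protein that shares the symbol root without belonging to the LIM-only family, fell to 2.07 ± 0.350 TPM in TSA, against 17.8 ± 3.83 TPM in vehicle (−2.59, limma adjusted p 6.08e-05). LIMD1 fell to 1.13 ± 0.412 TPM in TSA, against 8.40 ± 1.46 TPM in vehicle (−2.14, limma adjusted p 0.000157). LDB3, a LIM protein of muscle that is not a paralog of LDB1, was listed at 0 in all 3 TSA libraries and at 0.326 ± 0.0769 TPM in vehicle.

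The genes with profiles most like each of the 5 were ranked by Euclidean distance over the 6 libraries, on log2(TPM + 1) centred per gene. Nearest to LMO3 were CPLX2 (distance 0.381), RIPPLY3 (0.572) and SCNN1A (0.586), with levels in TSA of 6.92 ± 0.224, 14.4 ± 1.98 and 2.75 ± 0.472 TPM and in vehicle of 199 ± 34.5, 384 ± 35.2 and 126 ± 7.32 TPM (SD, n = 3 each). Nearest to LDB1 were CAND2 (0.147), MTBP (0.166) and ZNF367 (0.189). Nearest to LMO4 were CDH8 (0.0626), SZRD1 (0.0657) and ZWILCH (0.0770), and the 2 nearest to LMO2 were UST (0.149) and FAM98C (0.181). Nearest to LMO1 were PTGES3P1 (0.237), CDC123 (0.238) and SDHD (0.249), of which PTGES3P1 is a pseudogene whose reads may belong to its parent gene. The LMO1 profile rests on 4 to 23 reads per library, so counting error weighs heavily on its ranking and no likeness is read from it. The 3 distances of LMO3 exceeded those of the other 4 genes.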

How the data were processed

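Messenger RNA libraries of H69 cells (3 TSA, 3 vehicle, grouped by their labels) were prepared with a stranded poly(A) kit, per the labels' protocols. Build hg19 and the tools STAR 2.5.3a, featureCounts, edgeR, Picard 1.127 and FastQC 0.11.2 stand in the submitters' processing notes, without roles. Whether counting used strand was not given in those sources, and overlapping antisense reads cannot be told apart. The authors deposited TPM per GENCODE 19 gene. The authors' deposited comparison table holds a log2 fold change, a mean log2 level, a likelihood ratio score, and a p-value and FDR, per the file headers, and its sign, TSA over vehicle, was settled from the TPM values.

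Whole reads were recovered from ratios of TPM within a gene for 27644 of 27644 genes above 0 in at least 2 libraries (relative tolerance 1e-09). For genes other than the 5 described they may be divided by a common factor.

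The test was limma 3.58.1 in R 4.3.3 (trend, two-sided) on log2(TPM + 1), for genes that reached 1 TPM in 3 or more of the 6 libraries, with Benjamini-Hochberg adjustment over 17596 genes and a threshold of 0.05. The test was also run on simulated libraries with few changed genes and the same added spread for every gene. That setting is unlike these data, so nothing is read from that run. This scale understates the change of low genes. The named partners were, per list, up to 4 genes past the test with the greatest change, or the 2 most abundant where fewer than 2 passed. SSBP3, SSBP4, NHLH2, TAL1, LYL1, GATA genes, SNAI2, DEAF1, BRCA1, BARD1, RBBP8 and LDB3 were named after their values were seen. Some genes that this rule names are not reported here. Members and lists were chosen with earlier results of these data known. Alternatives are in the closing section. Length and GC content came from GENCODE 29 for 95.4% of tested genes. Figures used matplotlib 3.10.9.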

Additional observations from a re-analysis of the deposited data

How the results depend on the processing

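The members were chosen with this difference known, so their passing the threshold is no support. Over 19 alternatives the log2 fold changes were −5.42 to −4.64 for LMO3, −0.85 to −0.48 for LMO4 and −1.70 to −1.31 for LDB1. LMO1 passed the threshold with a replicate block (−0.62) and with length and GC trends removed (−0.69), and LMO2 stopped passing it without both replicate 1 libraries (−0.54). The cause was not tested. Leaving out 1 library in turn gave −0.81 to −0.44 for LMO1, −0.85 to −0.57 for LMO2, −4.99 to −4.79 for LMO3, −0.85 to −0.73 for LMO4 and −1.60 to −1.33 for LDB1. LMO1 passed the threshold without TSA replicate 2. Over all alternatives the members called lower numbered 3 to 5 and those called higher 0. The partner genes called higher numbered 14 to 26 and those called lower 26 to 35, against 21 and 33. All tested genes called higher numbered 3788 to 5826 and those called lower 4956 to 6848. Higher calls were 45.0% of all calls, and 50.1% to 50.8% under median-of-ratios scaling, quantile normalization, voom on recovered reads or removal of length and GC trends. Deviations of same-numbered libraries correlated at 0.63, 0.59 and −0.073, and those of differently numbered libraries at −0.64 to 0.38. These values do not settle whether the numbers pair samples, and the main test took no pairing. The replicate block gave 5637 higher and 6848 lower calls, with 5 members lower. At a minimum of 5 TPM LMO1 and LMO2 were not tested. Of 22 partner genes followed under each alternative, 21 kept their call wherever they were tested and RLIM lost it under 6. These genes were picked for the greatest change among the called genes of each list in the same libraries. Their kept calls were therefore likely in advance and say nothing about the other partner genes.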
